A study of Homo sapiens with 2 samples.

Results

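The genes that load, fire and copy DNA replication origins were compared between 2 RNA sequencing libraries from cells labelled DU145, a cell line derived from a metastasis of human prostate cancer. They were chosen by name from the deposited count table: all rows for the MCM, ORC, GINS, RFC and RPA families and for the subunits of DNA polymerases alpha (with its primase), delta and epsilon, together with 13 further genes of helicase loading, helicase activation, the replication clamp, flap processing, ligation, nucleotide supply and maintenance methylation. The rule found 53 of the 17249 genes in the table and used no measured value. Of these, 52 reached 1 CPM (a count scaled to the size of its library) in at least 1 library and are called measured below. RPA4, a homologue of RPA2, with 6 control counts and 0 in the other library, was not measured.

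The study asked what follows when P53RRA, a long noncoding RNA also named LINC00472, is silenced in prostate cancer cells. The treated group is 1 library of cells transfected by lipid reagent with 200 pmol of an interfering RNA directed at P53RRA, with fresh medium after 4 h and a further 48 h of culture. The control group is 1 library whose column is named si-NC, the usual name of a negative-control small interfering RNA. The treatment text of the labels is the same for both samples, so what the control cells received is known only from that name. With 1 library in each group there is no replicate check, and no p-value was computed. Unless stated otherwise, intervals given below are exact 95% intervals on the ratio of 2 counts, and all cover counting error alone.

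Replication begins where the origin recognition complex (ORC), with CDC6 and CDT1, loads the MCM2 to MCM7 ring onto DNA in G1. In S phase the kinase CDC7 with its partner DBF4 acts on the ring, and CDC45 and the GINS complex join it to form the active helicase. Polymerase alpha-primase then lays primers, polymerase epsilon copies the leading strand and polymerase delta the lagging strand, held by the PCNA clamp that the RFC complex loads. Many of these genes are known targets of the E2F transcription factors, which the RB protein restrains, and DU145 is known for a damaged RB1 gene.

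The libraries held 16030207 counts (control) and 11942362 counts (si-P53RRA). LINC00472 counted 105 reads in the control and 6 after si-P53RRA, 11.9-fold lower (interval 5.29 to 33.2). The libraries stood apart over much of the transcriptome: 42.9% of the 13532 measured genes differed by at least 2-fold. Of 20 mesenchymal and fibroblast markers, 18 were at least 2-fold lower in the si-P53RRA library, their summed level was 16985 CPM in the control and 1730 CPM in the si-P53RRA library, and THY1 and MMP2, with 10323 and 18038 counts in the control, were at 0 there. Of 13 measured epithelial markers, 8 were higher by 2-fold or more and 3 lower. All 17 epithelial markers in the table together had summed levels of 511 and 2092 CPM. Of 18 epithelial markers listed, 17 were in the table, and 2 of these were at 0 in the control and 1 in the si-P53RRA library; among them EPCAM had 0 and 50 counts and CDH1 2 and 7 counts, both chosen after their values were seen. Of 9 prostate luminal markers 5 were in the table, with summed levels of 33.2 and 917 CPM, and HOXB13 had 0 and 10004 counts. These values put in doubt whether both libraries come from the same cell population. In every value below, a difference between the cells of the 2 libraries and an effect of the interfering RNA cannot be told apart. RB1, likewise chosen after its value was seen, had 920 counts in the control and 234 in the si-P53RRA library.

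The promoters of replication genes are shown first, because sequence played no part in the choice of the genes. Promoters, here 250 bases before to 50 bases after a start site in RefSeq on GRCh38.p14, were found for 46 of the 53 genes. The letters TTTCCCGC, TTTGGCGC, TTTCGCGC or TTTGCCGC, common forms of the E2F binding motif, were searched on both strands, and matches of them may overlap. They stood in a promoter of 23 of the 46 genes, against 738 of 12286 genes of the count table (6.01%) and 3.99% of 27305 genes with a promoter entry. The first form was in 13 of them, the second in 8, the third in 6 and the fourth in 0, with some genes holding more than 1. A match is a description of the letters and not a site. The windows below are from genes at least 2-fold apart between the libraries, and from MCM6, MCM7 and GINS2 as partners of such genes in the same complex. Capitals mark the matching letters, and each window is written 5′ to 3′ on the strand of the gene.
ORC3 (chr6:87590112-87590141, plus strand): cgcgagggcgcGCGGGAAAtcccgagtgca
MCM2 (chr3:127598404-127598433, plus strand): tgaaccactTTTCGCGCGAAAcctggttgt
MCM6 (chr2:135876513-135876542, minus strand): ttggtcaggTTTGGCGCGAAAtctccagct
MCM7 (chr7:100101388-100101417, minus strand): ggggggcgacgTTTCGCGCcaatttcggtt
GINS1 (chr20:25407667-25407696, plus strand): agctttgttcgGCGCCAAAgcgcggagcgg
GINS2 (chr16:85688967-85688996, minus strand): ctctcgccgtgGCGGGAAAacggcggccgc
POLA1 (chrX:24693770-24693799, plus strand): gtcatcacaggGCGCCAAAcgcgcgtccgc
PCNA (chr20:5126663-5126692, minus strand): cagcgtcagggGCGGGAAAaggcgtgcgtt
LIG1 (chr19:48170440-48170469, minus strand): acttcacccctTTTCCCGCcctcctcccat
POLE2 (chr14:49688201-49688230, minus strand): ctgcggcggtgGCGCCAAAtcgcaaatatg

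The MCM2 and MCM6 windows each hold 2 overlapping matches, one on each strand, that share 4 letters. MCM7 and MCM6 each have a further match upstream. The matching letters begin 3 bases after the start site in MCM2, 12 bases before it in ORC3 and 59 bases before it in PCNA. Both genes that were lower and genes that were higher in the si-P53RRA library hold these letters. They were in 15 of 29 genes below 0 on the log2 scale (51.7%) and in 8 of 17 genes above 0 (47.1%). The median log2 change was −0.45 over the 23 genes with the letters and −0.14 over the 23 without. DBF4 and RFC1, which were among the lower genes, have promoter entries without these letters. The CCAAT box, the motif of factor NF-Y, was in the promoters of 60.9% of the 46 genes, against 42.5% of genes of the count table. The cell cycle homology letters TTTGAA or TTCGAA were in 8.70%, against 16.1%.

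As a group, the replication genes differed modestly between the libraries, and more of them were lower than higher in the si-P53RRA library. A difference is given as a log2 change, the si-P53RRA minus the control value of log2(CPM + 0.5) after TMM scaling, a form that understates the change of low genes. Of the 52 measured genes, 33 were below 0 and 19 above 0, and the median log2 change was −0.28, with values from −1.64 for ORC3 to 1.12 for POLE2. Over all 13532 measured genes the median was −0.06. At a size of 2-fold, 9 genes were lower (17.3%), against 23.2% of all measured genes, and 1 was higher (1.92%), against 19.7% of all measured genes. The lower genes were ORC3, RFC1, MCM2, DBF4, LIG1, PCNA, GINS1, POLD3 and POLA1, and the higher gene was POLE2. POLA1 at −1.03 lay just inside this size and CDC6 at −0.92 just outside it. The middle 50% of replication genes spanned 1.20 log2 units, and that of all measured genes 1.65. Counting error was small beside most of these differences. The interval excluded a ratio of 1 for 46 genes, 17 higher and 29 lower, and held 1 for ORC5, CDT1, MCM5, POLA2, RFC2 and RFC5. The same count was not made over all measured genes, so these 46 genes have no background share beside them.

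Replication transcripts were abundant in both libraries. The 53 genes took 0.640% of control counts and 0.546% of si-P53RRA counts, and their summed level was 6113 and 5713 CPM. In CPM, 49 of the 52 measured genes stood above the median measured gene in the control and 46 in the si-P53RRA library. CPM is not corrected for transcript length. In bulk RNA, fewer replicating cells and less RNA per cell cannot be told apart.

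**Figure D1:**
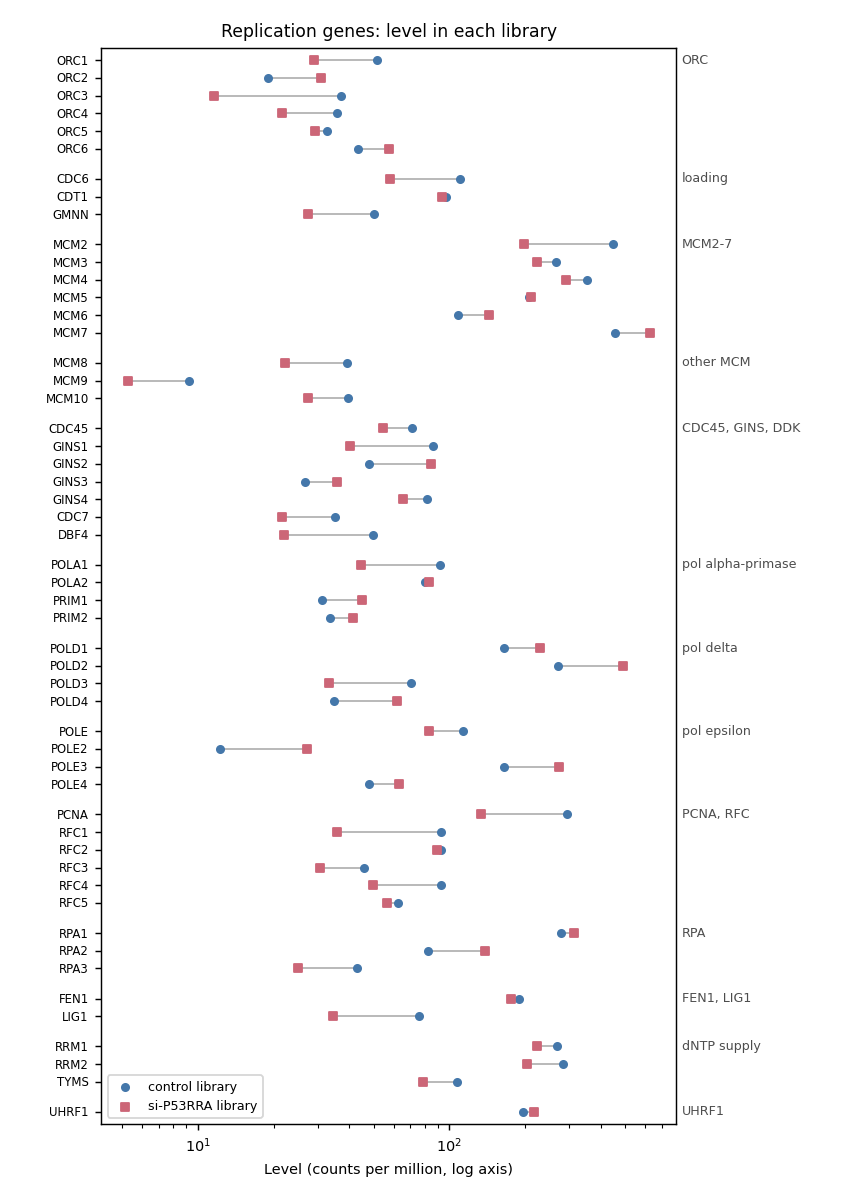
Level of each of the 52 measured replication genes in the control library (circles) and the si-P53RRA library (squares), in CPM on a log axis, grouped by complex or role. The widest gaps are those of ORC3, from 37.2 to 11.6 CPM, and RFC1; MCM7 is the highest in both libraries, at 454 and 626 CPM.

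The origin recognition complex, which marks origins, held ORC3, the gene with the lowest log2 change of the whole set, and its subunits went in both directions. ORC3, part of the core of the complex, had 625 counts in the control (37.2 CPM) and 132 in the si-P53RRA library (11.6 CPM), a level 3.22-fold lower (interval 2.66 to 3.91). ORC2, its neighbour in the core, had 319 counts (19.0 CPM) and 352 counts (30.9 CPM), a ratio of 1.62 (interval 1.39 to 1.89). The partners thus lay on opposite sides of equality, ORC2 higher and ORC3 lower in the si-P53RRA library. ORC1, the ATPase subunit that in human cells is turned over during S phase, had 865 and 332 counts, a log2 change of −0.81. ORC4 had 600 and 247 counts (−0.71), and ORC5 550 and 333 counts (−0.16). ORC6, needed for helicase loading, had 728 and 658 counts, 43.4 and 57.7 CPM, and a log2 change of 0.41. The median over the 6 subunits was −0.44. With the length and GC correction given below, that median was 0.01, with ORC4 at −0.01 and ORC5 at 0.03.

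The factors that load the helicase with ORC were at equal or lower levels. CDC6, the ATPase that joins ORC in G1, had 1855 counts in the control (110.5 CPM) and 665 in the si-P53RRA library (58.3 CPM), a level 1.90-fold lower (interval 1.73 to 2.08). CDT1, which brings the MCM ring to ORC, had 1624 and 1063 counts, which is 96.8 and 93.2 CPM. GMNN, geminin, the protein that binds CDT1 and blocks relicensing, had 841 and 313 counts, 50.1 and 27.4 CPM, 1.83-fold lower (interval 1.60 to 2.09). Before any correction for length and GC content, CDT1 thus differed little while its inhibitor was at the lower level. With that correction, given below, CDT1 had a log2 change of −0.46 and GMNN one of −0.91. There were 1.93 CDT1 counts for each GMNN count in the control and 3.40 in the si-P53RRA library. That ratio changed 1.76-fold (interval, by a normal approximation to counting error, 1.51 to 2.05), a value that needs no scaling between libraries. It is not corrected for length or GC content.

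The 6 subunits of the MCM helicase ring, which act in equal number, did not move together. MCM2 had 7468 counts in the control (445 CPM) and 2266 in the si-P53RRA library (199 CPM), a level 2.24-fold lower (interval 2.14 to 2.35). MCM7 had 7611 counts (454 CPM) and 7144 counts (626 CPM), 1.38-fold higher (interval 1.34 to 1.43). These 2 genes had nearly equal counts in the control, and MCM7 had 3.15 counts for each MCM2 count in the si-P53RRA library. MCM6, which forms the catalytic core with MCM4 and MCM7, was at 109 and 143 CPM, a log2 change of 0.40. MCM4 was at 354 and 291 CPM (−0.28), and MCM3, the partner of MCM5 in the ring, at 266 and 224 CPM (−0.25). MCM5 itself was at 208 and 212 CPM. Its log2 change of 0.03 turned below 0 when libraries were scaled by total counts. MCM2 alone of the 6 was at least 2-fold apart.

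The relatives of the ring were all lower, by less than 2-fold. MCM8 and MCM9, which work together in homologous recombination, had 657 and 155 counts in the control against 254 and 60 in the si-P53RRA library, log2 changes of −0.80 and −0.76. MCM10, a factor of helicase activation that is not part of the ring, had 664 and 312 counts (−0.53). With the length and GC correction given below, MCM8 was at −0.36, MCM9 at −0.02 and MCM10 at −0.23.

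Among the genes that turn the ring into an active helicase, DBF4 and GINS1 were at least 2-fold lower. DBF4, the regulatory subunit of the CDC7 kinase, had 835 counts in the control (49.8 CPM) and 251 in the si-P53RRA library (22.0 CPM), a level 2.26-fold lower (interval 1.96 to 2.62). CDC7 itself had 588 and 247 counts, a log2 change of −0.68. Kinase and regulator were thus both at lower levels, and DBF4 counts for each CDC7 count went from 1.42 to 1.02. The 4 GINS genes, whose products form a compact complex, split evenly by direction. GINS1 had 1445 and 461 counts (86.1 and 40.4 CPM), 2.13-fold lower (interval 1.92 to 2.37), and GINS2 had 805 and 963 counts (48.0 and 84.4 CPM), 1.76-fold higher (interval 1.60 to 1.93). GINS3 was higher (446 and 409 counts, log2 change 0.42) and GINS4 lower (1364 and 745 counts, −0.31). CDC45, which holds the helicase with GINS, had 1193 and 623 counts (−0.38).

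Of the 19 replication genes above 0, 9 were polymerase subunits, out of 12 such subunits in all, although POLA2 at 0.05 turned below 0 under scaling by total counts. In each of the 3 enzymes 1 subunit stood apart below 0. In polymerase alpha-primase this was POLA1, the catalytic subunit, with 1536 counts in the control (91.5 CPM) and 510 in the si-P53RRA library (44.7 CPM), a level 2.05-fold lower (interval 1.85 to 2.27). PRIM1, the catalytic primase subunit, had 525 and 512 counts, a log2 change of 0.51, and PRIM2, the large primase subunit, had 561 and 471 counts (0.30). POLA2, the accessory subunit, had 1347 and 951 counts. Transcripts of both primase subunits and of POLA1 thus lay on opposite sides of equality, with POLA2 close to it.

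In polymerase delta the subunit below 0 was POLD3, an accessory subunit that binds PCNA and is also known for break-induced replication. It had 1178 counts in the control (70.2 CPM) and 380 in the si-P53RRA library (33.3 CPM), a level 2.11-fold lower (interval 1.88 to 2.37). Its partners were all higher, each by less than 2-fold. POLD2, which bridges POLD3 to the catalytic subunit, had 4518 and 5610 counts (269 and 492 CPM), a ratio of 1.83 (interval 1.76 to 1.90). POLD4, the smallest subunit, had 582 and 706 counts (34.7 and 61.9 CPM), a ratio of 1.78. POLD1, the catalytic subunit, had 2759 and 2603 counts, a log2 change of 0.47.

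In polymerase epsilon it was the catalytic subunit that lay below 0. POLE had 1908 counts in the control (114 CPM) and 951 in the si-P53RRA library (83.4 CPM), a log2 change of −0.45. POLE2, its accessory subunit, had 206 counts (12.3 CPM) and 311 counts (27.3 CPM), 2.22-fold higher (interval 1.86 to 2.66). It was the sole replication gene at least 2-fold higher, and its log2 change was 0.99 under scaling by total counts. POLE3 and POLE4, histone-fold subunits that bind histones at the fork, were at 165 and 47.7 CPM in the control and 273 and 63.1 CPM in the si-P53RRA library, log2 changes of 0.72 and 0.40.

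The clamp and its loader lay below 0 throughout, although the intervals of RFC2 and RFC5 held a ratio of 1. PCNA, the ring that tethers polymerases and recruits many fork enzymes, had 4918 counts in the control (293 CPM) and 1528 in the si-P53RRA library (134 CPM), a level 2.19-fold lower (interval 2.07 to 2.32). RFC1, the large subunit specific to the PCNA loader, had 1555 and 409 counts (92.7 and 35.9 CPM), 2.58-fold lower (interval 2.32 to 2.89). Both were at least 2-fold lower, while the smaller subunits, which are shared with other clamp loaders, were not, except that RFC4 reached −1.02 under scaling by total counts. RFC4 had 1552 and 566 counts (−0.89), RFC3 766 and 350 (−0.57), RFC5 1047 and 645 (−0.14) and RFC2 1547 and 1021 (−0.04). The median over the 6 genes was −0.73.

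**Figure D2:**
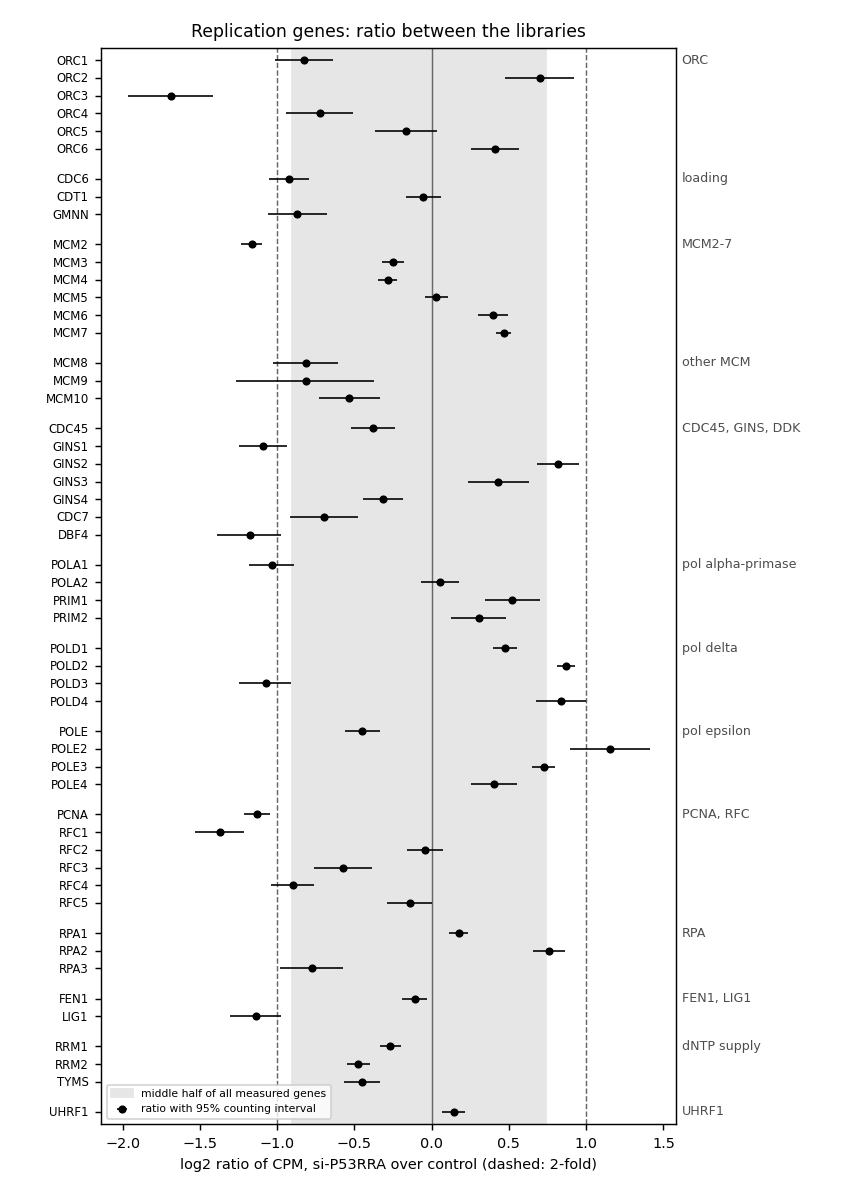
Log2 ratio of CPM, si-P53RRA over control, for the 52 measured replication genes, with 95% counting intervals, dashed lines at 2-fold and the middle 50% of all measured genes shaded. Within ORC, the MCM ring, GINS and each polymerase, points lie on both sides of 0, whereas the 6 points of PCNA and RFC all lie below it. The intervals of RFC2 and RFC5 reach across 0.

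RPA, the complex that coats single-stranded DNA, was split as well. RPA1, the large DNA-binding subunit, had 4671 and 3584 counts, a log2 change of 0.17. RPA2, the subunit phosphorylated under replication stress, had 1379 counts in the control (82.2 CPM) and 1585 in the si-P53RRA library (139 CPM), a log2 change of 0.75. RPA3, the smallest subunit, had 718 and 285 counts and a log2 change of −0.76.

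The enzymes that finish Okazaki fragments differed from each other. LIG1, the ligase that seals them, had 1274 counts in the control (75.9 CPM) and 393 in the si-P53RRA library (34.4 CPM), a level 2.20-fold lower (interval 1.97 to 2.47). FEN1, the nuclease that trims their flaps, had 3171 and 1999 counts, a log2 change of −0.11. PCNA binds both enzymes, and PCNA counts for each FEN1 count went from 1.55 to 0.764. Nucleotide supply was slightly lower throughout. RRM1 and RRM2, the subunits of ribonucleotide reductase, were at 269 and 282 CPM in the control and 223 and 203 CPM in the si-P53RRA library, log2 changes of −0.27 and −0.47. TYMS, thymidylate synthase, had 1800 and 895 counts (−0.45). UHRF1, which reads hemimethylated DNA behind the fork, had 3293 and 2471 counts and a log2 change of 0.14.

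The balance between subunits of a complex can be read without any scaling between libraries, as the ratio of their counts. In all 8 complexes the subunit with the highest and the one with the lowest log2 change moved apart by at least 2.51-fold, where the pair was picked by those changes and the size is therefore a description. The ratio of ORC2 to ORC3 counts went from 0.510 to 2.67, a 5.22-fold change (interval, by a normal approximation to counting error, 4.10 to 6.65). For GINS2 over GINS1 it went from 0.557 to 2.09 (3.75-fold), and for POLD2 over POLD3 from 3.84 to 14.8 (3.85-fold). For MCM7 over MCM2 the change was 3.09-fold, for POLE2 over POLE 3.03-fold, for PRIM1 over POLA1 2.94-fold, for RPA2 over RPA3 2.90-fold and for RFC2 over RFC1 2.51-fold. These ratios are not corrected for length and GC content. With the correction given below, RFC2 and RFC1 were at −0.21 and −0.98, against −0.04 and −1.36 without it. POLD2 and POLD3 were at 0.65 and −0.80, against 0.87 and −1.06. These gaps narrowed, whereas ORC2 and ORC3, at 1.12 and −1.30 against 0.68 and −1.64, stayed as far apart.

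Levels of different genes are comparable per length, here counts per kilobase of the longest transcript, scaled to the same sum in each library. On that scale MCM7 was the highest and MCM6 the lowest subunit of the ring in both libraries, 5.06-fold apart in the control and 5.30-fold in the si-P53RRA library. MCM2 stood at 1.47 times the median of the 6 subunits in the control and at 0.882 times it in the si-P53RRA library. In polymerase delta, POLD2 was 6.79-fold above POLD3 in the control and 26.1-fold above it in the si-P53RRA library. In polymerase alpha-primase the span from lowest to highest subunit went from 1.48-fold to 3.77-fold, and in RFC from 3.37-fold to 7.20-fold. In GINS it went from 3.19-fold to 2.82-fold. Spans depend on the length used: by coding length POLD2 stood 13.7-fold above POLD3 in the si-P53RRA library, the span of polymerase epsilon there was 51.0-fold against 11.0-fold by transcript length, and the span of RPA was 1.97-fold in the control and 2.47-fold in the si-P53RRA library, against 3.03-fold and 6.41-fold by transcript length.

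**Figure D3:**
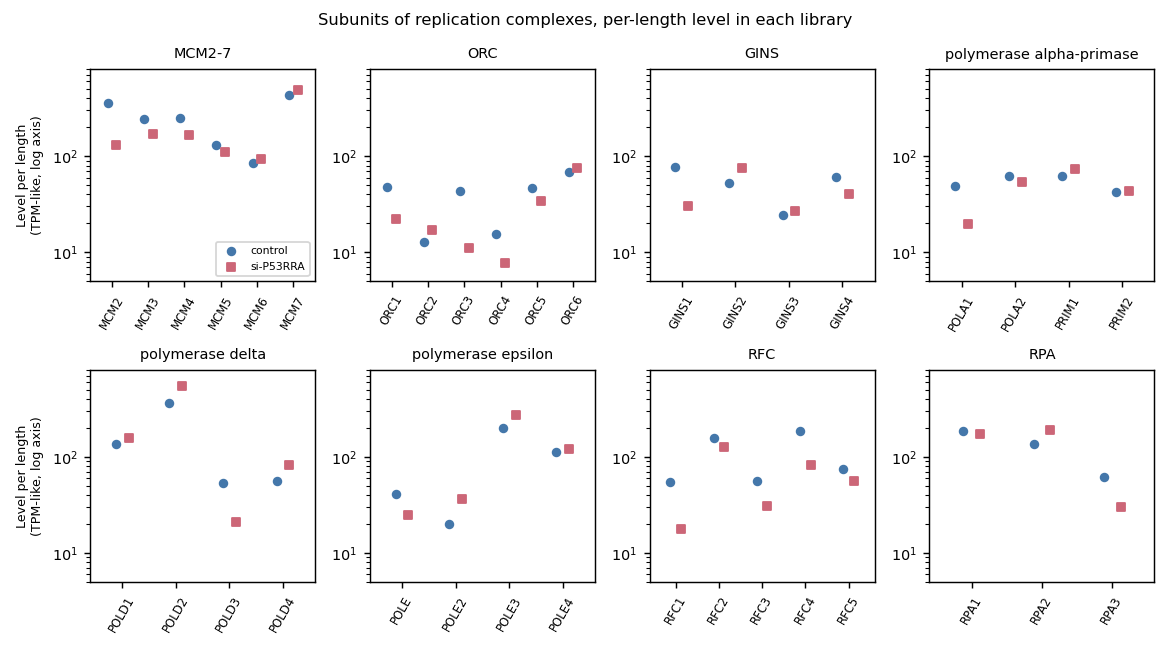
Level per length (counts per kilobase of the longest transcript, scaled to the same sum in each library, log axis) of the subunits of 8 replication complexes in the control library (circles) and the si-P53RRA library (squares). POLD3, RFC1, POLA1 and RPA3 sit lowest of their complexes in the si-P53RRA library, and MCM7 highest of its ring in both.

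Other genes of S phase, cell cycle control and mitosis were described by 8 lists, none of whose genes belong to the set above. Among 10 firing and fork-protection factors, 5 were at least 2-fold lower and none higher, with a median log2 change of −0.77. MTBP (−2.24) and TOPBP1 (−2.07), which take part in helicase activation, RIF1 (−1.79), which controls origin timing, and CLSPN (−1.20), the checkpoint mediator claspin, had the largest differences. Of 10 checkpoint genes 2 were lower and none higher, at a median of −0.12, among them ETAA1 (−2.52), an activator of the kinase ATR. ATR itself was at −0.59. Of 6 genes of alternative clamp loaders and cohesion, 3 were lower: ATAD5, which unloads PCNA, had 352 counts in the control and 20 in the si-P53RRA library (−3.25), and the cohesin acetyltransferases ESCO2 and ESCO1 were at −1.22 and −1.15. The loader of PCNA, RFC1, and its unloader, ATAD5, were thus both in the lower group.

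The remaining lists were mixed or lower. Of 10 genes of replication-coupled chromatin assembly 1 was higher and 1 lower, and the median was 0.40. TONSL at 1.23 and its partner MMS22L at −1.11, a complex that acts at damaged forks, were the extremes. Of 10 flap, primer and topology genes, RNASEH2A (1.00), the catalytic subunit of ribonuclease H2, was the one higher and TOP2A (−1.57) the one lower, at a median of −0.34. Of 10 other genes of nucleotide synthesis 2 were lower and none higher, at a median of −0.35, and SAMHD1, a dNTP hydrolase, was at −1.20. Of 21 E2F and RB regulators 7 were lower and 1 higher, E2F2 (1.59), at a median of −0.48. Of 22 mitotic genes 13 were lower and none higher, at a median of −1.15. TOP2A is on this list as well as on the topology list, and is counted as lower in both. Against these lists the background shares were 19.7% higher and 23.2% lower.

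**Figure D4:**
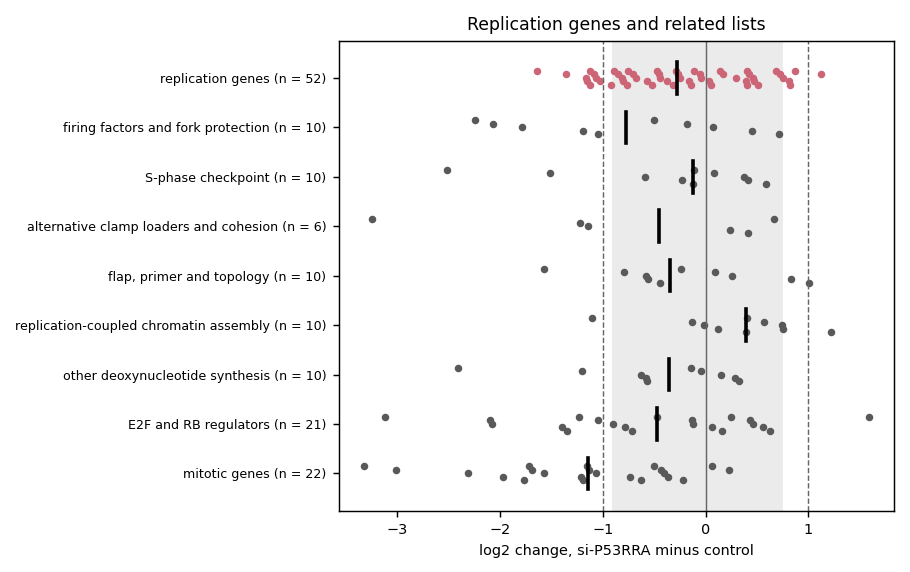
Log2 change, si-P53RRA minus control, of each measured gene of the replication set and of 8 related lists, with vertical bars at list medians, dashed lines at 2-fold and the middle 50% of all measured genes shaded. The replication genes lie between −1.64 and 1.12 around a median of −0.28, and the mitotic genes around −1.15.

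Changes of replication genes were compared with those of the genes beside them on the chromosome. For each gene the median log2 change of the 5 measured genes on each side was taken, in the gene order of GRCh38. It had the same sign as the replication gene in 37 of 52 cases (71.2%), against 64.5% over all measured genes with a position. Across the 52 genes the rank correlation was 0.47, and across all genes it was 0.38. Neighbouring points share genes and both libraries, so this is a description. POLE2, on chromosome 14, had the highest neighbour median (1.22), with 6 of its 10 neighbours at least 2-fold higher and 0 lower. LIG1, on chromosome 19, had a neighbour median of −1.23, with 5 of 10 neighbours at least 2-fold lower. ORC3, on chromosome 6, was farther from its surroundings, at −1.64 against a neighbour median of −0.18, with 1 neighbour of 10 lower. DBF4, on chromosome 7, was at −1.16 against 0.13. MCM5, on chromosome 22, was at 0.03 among neighbours with a median of −1.49, 7 of 10 of them lower. With 10 genes on each side the neighbour medians were 1.06 for POLE2, −0.54 for LIG1, −0.34 for ORC3, −0.41 for DBF4, which changes sign, and −0.79 for MCM5.

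**Figure D5:**
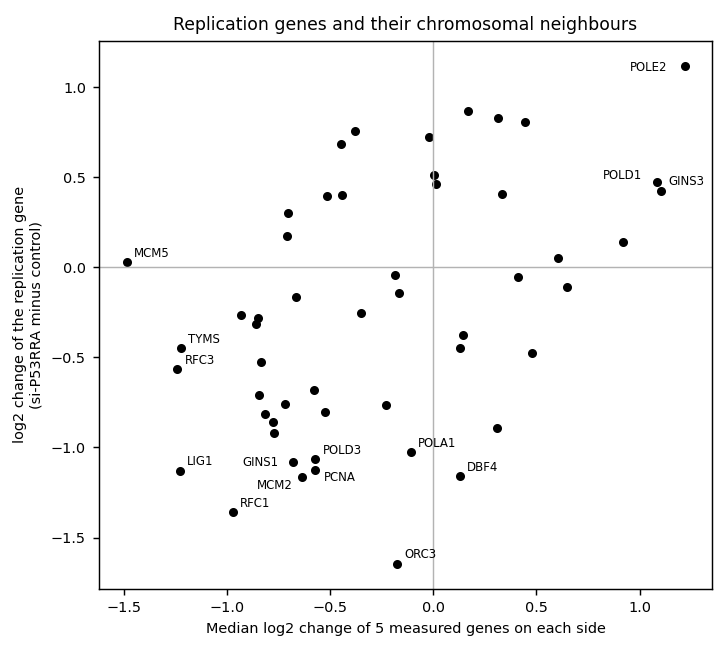
Log2 change of each measured replication gene (vertical axis) against the median log2 change of the 5 measured genes on each side of it (horizontal axis), both si-P53RRA minus control. POLE2 lies at the upper right, LIG1 and RFC1 at the lower left, and ORC3, DBF4 and MCM5 farther from their neighbours, of which DBF4 depends on the number of neighbours taken.

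Transcript length and base composition moved with the changes. The rank correlation of log2 change with the length of the longest transcript was −0.31 over the 52 genes and −0.16 over all 12814 annotated genes, and with its GC content 0.35 and 0.24. The 22 replication genes with transcripts under 3000 bases had a median log2 change of −0.08, with 10 above 0, and the 30 longer ones had a median of −0.46, with 9 above 0. Over all genes the medians were 0.22 for short and −0.21 for long transcripts. After the changes were corrected for a smooth surface in length and GC content over all genes, 4 replication genes were at least 2-fold lower, ORC3, MCM2, PCNA and LIG1, and 2 higher, POLE2 and ORC2, against 19.5% of all genes lower and 20.4% higher under the same correction. The 5 others were then at −0.98 (RFC1), −0.80 (POLD3), −0.78 (GINS1), −0.74 (DBF4) and −0.68 (POLA1). Counting across shared sequence is a further limit: 24 of the measured genes have neither a processed pseudogene nor an overlapping gene in the annotation. PCNA and RRM2 each have 3 such pseudogenes, and MCM2 and DBF4 each overlap another gene. The limit also holds for ORC2, GINS2, MCM7, POLD2, POLD3, PRIM1, RPA2 and RPA3, which entered the subunit ratios above. PRIM1 and FEN1 each overlap a gene on the same strand that has higher counts.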

How the data were processed

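Poly(A)-selected RNA of 2 samples was sequenced, per the labels' protocols. The authors deposited whole-number counts per gene for 17249 symbols, unnormalized to judge by their differing totals. The genome build was hg19, per the submitters' processing notes. Aligner, counter, annotation and strandedness were not given in the sources used here, and overlapping and antisense genes cannot be separated. The si-P53RRA column was matched to the sample of that title, and the si-NC column was taken as the control. The counts were scaled with TMM in edgeR 4.0.16 (R 4.3.3) to CPM. Changes were taken on log2(CPM + 0.5) among genes that reached 1 CPM in either library, and a gene was counted as higher or lower past 2-fold. Intervals for ratios were computed with scipy 1.17.1 and cover counting error only. Names, gene order and lengths came from GENCODE 29 and promoters from RefSeq, both on GRCh38, which is not the build of the reads, so they were joined by symbol (94.7% of measured genes matched). The 53 genes and all lists were chosen with earlier results of these data known. Every gene of the rule may be named, and so may up to 4 genes with the largest change in each related list (50 counts or more) and up to 3 in each marker list. The procedure was tested on simulated data. Alternatives were other scalings (total counts, upper quartile, DESeq2 1.42.0 size factors), pseudocounts, filters and fold sizes, and a length and GC correction. The values of 1 gene of a related list are not reported here.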

Additional observations from a re-analysis of the deposited data

How the results depend on the processing

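No paired analysis was possible because each group has 1 library, and no library could be left out for the same reason. The main values were 1 gene higher, 9 lower and a median of −0.28. Scaling by total counts, which shifts the median of all genes from −0.06 to −0.18, gave 0 higher, 11 lower and a median of −0.41, with 17.3% of all genes higher and 25.6% lower. It took POLE2 out of the called genes and brought in CDC6 (−1.05) and RFC4 (−1.02). The length and GC correction gave 2 higher, 4 lower and a median of −0.19, against 20.4% higher, 19.5% lower and a median of 0.06 over all genes, and put 3 related lists above 0 in place of 1. At 1.5-fold 7 genes were higher and 18 lower, with 29.2% and 32.7% of all genes as background, and at 3-fold 0 were higher and 1 lower, with 11.7% and 14.5%. Without genes that have a pseudogene or an overlapping gene, 4 of 24 were lower. With 10 neighbours on each side the median of the neighbour medians was −0.22, against −0.41 with 5. Upper-quartile and median-ratio scaling, the 5 CPM filter and the 0.1 CPM pseudocount changed no call among the replication genes, and the 2.5 CPM pseudocount lost POLA1. With no filter, which adds RPA4, the RPA median turned below 0, and with the correction the ORC median was 0.01. No value called at 2-fold changed direction. Depth gave each measured gene at least 155 control and 60 si-P53RRA counts, and the spread between replicates is not known.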
